A study of Drosophila melanogaster with 14 samples.

Results

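Whole-fly gene expression of sesB1 males was compared with that of wild-type males on 7 Affymetrix Drosophila 2.0 arrays, 4 of sesB1 males and 3 of wild-type males, chosen by the genotype and gender labels from a series of 14 arrays. The other 7 arrays are of females of the same genotypes and are used here only where stated. Total RNA was made from whole males 2 days old by the sample labels and by the study's methods, which describe isolations in triplicate from batches of 30 flies. The series' own description gives an age of 1 day. There are 4 sesB1 male arrays, and the sample titles call each of the 7 male arrays, array 4 included, a biological replicate. The methods do not describe an isolation beyond the triplicate. The sesB1 allele is a point mutation of an X-linked gene, outcrossed for more than 10 generations to the Canton S and Oregon R strains and kept over a balancer, and the males were F1 hybrids of a Canton S mother and an Oregon R father. Both genotypes were made by this cross. A male has a single X, from its mother, so that the sesB1 males carried no other copy of the gene. The 4 sesB1 arrays share 1 allele, and a whole-fly sample pools every tissue of the body.

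The gene sesB encodes the main adenine nucleotide translocase of the fly, the carrier of the inner mitochondrial membrane that takes ADP into the matrix in exchange for ATP. Without this exchange, ATP made by oxidative phosphorylation cannot reach the cytosol, and ATP synthase has no ADP to work on. A second translocase gene, Ant2, lies next to sesB and is expressed mainly in the testis. sesB1 flies are known for seizures after mechanical shock, slow development and a short life. The comparison asks which genes and pathways of the adult male are expressed differently when the translocase is mutated.

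Each array gave 1 value for each of 18769 probesets, a log2 signal centred on the probeset's median over the 14 arrays. A value of 0 is therefore the middle of the 14 arrays, a difference of 1 between arrays is a 2-fold difference, and the brightness of a probeset is unknown. Correlations over all probesets ran from 0.940 to 0.963 between wild-type male arrays, from 0.951 to 0.976 between sesB1 male arrays and from 0.824 to 0.887 between the genotypes. The median of 54 genes for seminal proteins lay between 2.03 and 2.85 in the 7 male arrays. Labels for a batch or a scan date were not used here. The titles call the arrays biological replicates but do not say whether those of a genotype came from separate cultures, so p-values measure the spread between these arrays.

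Wild-type male array 2 and sesB1 male array 4 held more of the transcripts of female tissues than the other 5 male arrays did. Yp1, a yolk protein gene, stood at -8.81, -0.89 and -9.10 in wild-type arrays 1 to 3 and at -8.92, -8.92, -8.82 and -2.40 in sesB1 arrays 1 to 4. The high arrays, 1 in each genotype, lay over 6 units above the rest, and the genotypes overlapped (limma adjusted p = 0.82). Yp2, another yolk protein gene, followed the same pattern, at -1.32 in wild-type array 2 and -2.70 in sesB1 array 4 and at most -7.22 in the remaining arrays.

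The female transcripts were not the same in the 2 arrays. Cp36, a chorion protein gene of the follicle cells, stood at -0.67 in wild-type array 2 and between -7.02 and -6.61 in the other 6 arrays, including sesB1 array 4 at -6.63. The chorion genes Cp38 and Cp7Fc were likewise high in wild-type array 2 alone, at -0.71 and -0.30. Send1, a protease gene of the spermatheca, the sperm store of females, stood at -1.27 in sesB1 array 4 and between -4.20 and -3.94 in the other 6, and CG17239, another such protease gene, at -0.56 in sesB1 array 4 and at most -2.02 elsewhere. The oocyte genes osk and dhd were high in both arrays, at -1.75 and -1.31 in wild-type array 2 and -3.47 and -2.41 in sesB1 array 4, against at most -5.78 for osk and -5.999 for dhd in the rest.

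Over whole lists the shift was smaller. Of 36 genes of the ovarian germline the median stood at -1.28 in wild-type array 2 and -1.54 in sesB1 array 4, and between -1.84 and -1.65 in the other 5. The median of 28 eggshell genes was -0.91 and -2.28 in these 2 arrays and between -3.59 and -3.40 in the rest. The probesets at least 8-fold higher in females, when chosen on sesB1 arrays, numbered 205, with a median of -1.34 in wild-type array 2 against -2.17 and -2.18 in wild-type arrays 1 and 3. When chosen on wild-type arrays they numbered 433, with medians of -1.45 in sesB1 array 4 and between -1.56 and -1.51 in the other sesB1 arrays. Of these 433 probesets, 11 were higher and 28 lower in sesB1 males at an adjusted p under 0.05, and without the 2 arrays 36 were higher and 13 lower. Of the 205 chosen on sesB1 arrays, 2 were higher and 15 lower, and without the 2 arrays 7 and 11. Each set was chosen on male arrays of 1 side of this comparison, which favours a direction, so these counts are a description. The part of these transcripts in the results that follow was not tested beyond leaving the 2 arrays out.

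**Figure D1:**
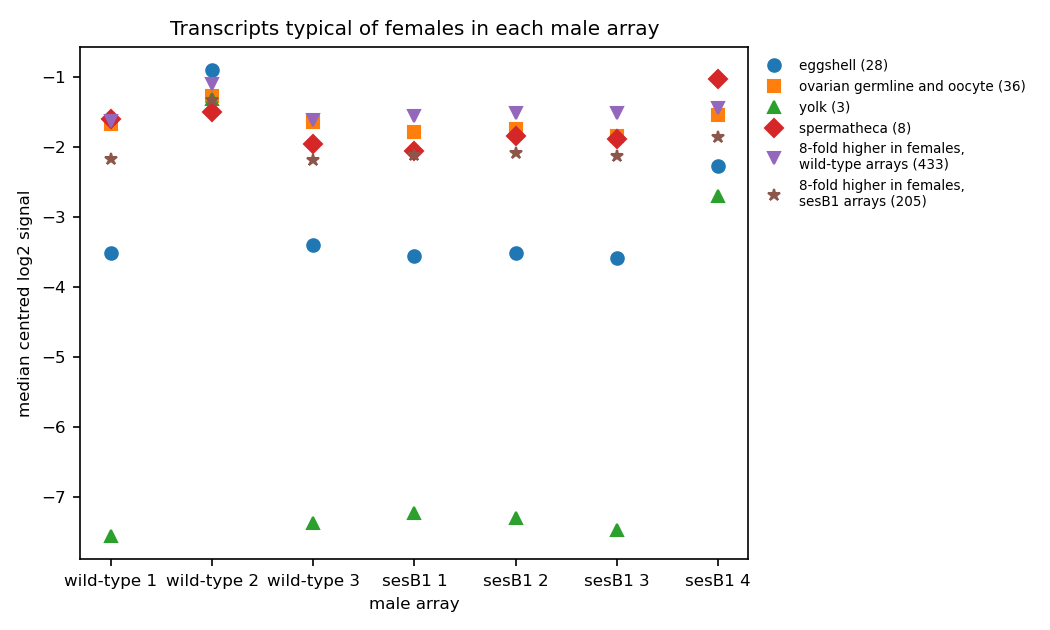
Medians of 4 gene lists and of 2 sets of probesets high in females (vertical axis, centred log2 signal) in each of the 7 male arrays (horizontal axis), with the number of probesets in parentheses. The 3 yolk genes stand at -1.32 in wild-type array 2 and -2.70 in sesB1 array 4 and below -7.2 in the other 5 arrays, and the spermatheca genes are highest in sesB1 array 4.

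By limma's test, with an adjusted p under 0.05 and a 2-fold change or more, 259 probesets (1.38% of those tested) were higher in sesB1 males and 139 (0.741%) were lower, 2.12% in both directions. The arrays of the genotypes did not overlap in 29.7% of all probesets. With no threshold on the fold change, 2077 probesets (11.1%) were higher and 2035 (10.8%) lower, and the median log2 fold change over all probesets was -0.01. Without wild-type array 2 and sesB1 array 4, 253 and 139 passed at 2-fold, and 238 of the 259 and 121 of the 139 were among them. Quantile normalization of the 7 arrays left 269 higher and 90 lower, a share of higher probesets of 74.9% in place of 65.1%. In whole flies, fewer cells of a type and less RNA in each cell cannot be told apart.

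The probeset of sesB itself stood at -0.03, 0.08 and 0.18 in wild-type arrays and 0.05, 0.03, 0.11 and 0.10 in sesB1 arrays, so that the genotypes overlapped (log2 fold change -0.00, standard error 0.07, limma adjusted p = 0.99). As sesB1 is a point mutation, its transcript level does not check the genotype of the arrays. Ant2 stood at 2.14, 2.04 and 2.07 in wild-type arrays and 1.78, 1.82, 1.66 and 1.58 in sesB1 arrays, lower in every sesB1 array (-0.37, standard error 0.08, limma adjusted p = 0.0063). After quantile normalization the value for Ant2 was -0.08 (limma adjusted p = 0.45).

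Among the 12 highest genes were 3 of the larval fat body (Fbp2, Fbp1 and Lsp2), the odorant-binding protein gene Obp99b, enzymes of detoxification and a copy of a sperm dynein gene, Sdic3. Fbp2, whose protein resembles alcohol dehydrogenase and is made in the fat body, stood at -6.46, -6.03 and -5.37 in wild-type arrays and 0.73, 0.74, -0.17 and 0.17 in sesB1 arrays. Every sesB1 array lay over 5 units above every wild-type array, a 79.7-fold rise (log2 fold change 6.32, standard error 0.27, limma adjusted p = 3.8e-07). Fbp1, the fat body receptor for larval serum proteins, stood at -6.17, -5.64 and -4.66 in wild-type arrays and 0.75, 0.84, -0.16 and 0.16 in sesB1 arrays. It rose 59.3-fold, with sesB1 arrays 3 and 4 below arrays 1 and 2, as for Fbp2. Lsp2, a larval serum protein that stores amino acids, stood at -3.93, -3.23 and -3.22 in wild-type arrays and 0.32, 0.58, 0.13 and -0.00 in sesB1 arrays, a 13.2-fold rise with no overlap.

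Obp99b, an odorant-binding protein gene also expressed outside the antenna, stood at -4.78, -4.40 and -3.93 in wild-type arrays and 0.65, 0.64, -0.04 and 0.04 in sesB1 arrays. It rose 25.8-fold, again with sesB1 arrays 3 and 4 below the other 2. Cpr49Ac, a cuticle protein gene with the same order of sesB1 arrays, rose 10.4-fold, from between -3.37 and -2.66 to between -0.01 and 0.69. CG34040, whose role is not given here, rose 13.4-fold on the probeset used (log2 fold change 3.75, limma adjusted p = 3.9e-06) and by 3.17 on its other probeset. CG5953 rose by 2.77 on 1 probeset (limma adjusted p = 2.5e-08), while its other probeset had a value of 0.30 (limma adjusted p = 0.28).

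Sdic3 belongs to a cluster of near-identical copies of a sperm dynein intermediate chain gene on the X, so that its probes may detect another copy. Its probeset stood at -0.36, -0.62 and -0.79 in wild-type arrays and 4.14, 4.08, 4.10 and 4.11 in sesB1 arrays. The 4 sesB1 arrays lay within 0.1 of each other and over 4 units above the wild-type arrays (26.0-fold, log2 fold change 4.70, standard error 0.10, limma adjusted p = 2.6e-09). The probeset of Sdic1, another copy, had a log2 fold change of -0.19 (limma adjusted p = 0.26).

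**Figure D2:**
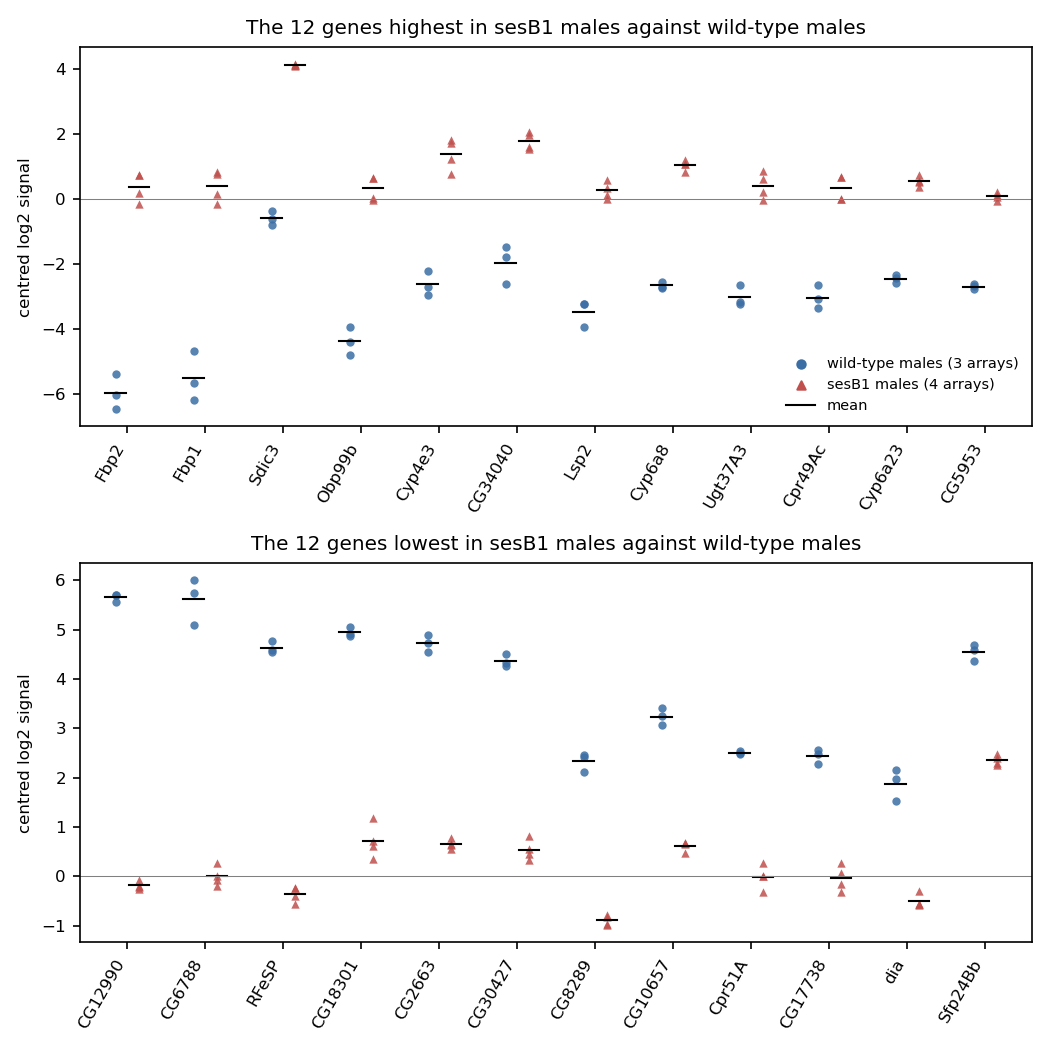
Centred log2 signal (vertical axis) of the 12 genes with the highest and the 12 with the lowest log2 fold change in males among genes past an adjusted p of 0.05 with no overlap, for each wild-type (circle) and sesB1 (triangle) array, with the mean of each genotype as a bar. The means differ by 6.32 for Fbp2 and -5.83 for CG12990, and in each panel no triangle reaches the circles of its gene.

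Among the 12 lowest genes, several have no function given here, and others encode predicted enzymes, lipid-binding proteins or cuticle proteins. CG12990 stood at 5.69, 5.55 and 5.71 in wild-type arrays and -0.22, -0.20, -0.06 and -0.25 in sesB1 arrays, 57.0-fold lower (log2 fold change -5.83, standard error 0.08, limma adjusted p = 9.1e-11). CG6788 stood at 5.74, 5.09 and 5.998 in wild-type arrays and 0.26, -0.19, -0.07 and 0.00 in sesB1 arrays, 48.8-fold lower. In both genes the wild-type arrays were high together and the sesB1 arrays lay near 0, the middle of the 14 arrays. CG8289 stood at 2.41, 2.47 and 2.11 in wild-type arrays and between -0.99 and -0.79 in sesB1 arrays, 9.31-fold lower.

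These 3 genes lie near each other on the X. Ordered along the chromosome, CG8289, CG12990 and CG6788 hold ranks 1521, 1526 and 1548 among 1873 measured genes. In the run of 28 measured genes that they bound, they were the only ones called at 2-fold, and sesB, at rank 892, lies 628 measured genes away. This closeness was looked for after the values of the 3 genes were seen.

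RFeSP encodes the Rieske iron-sulfur protein of respiratory complex III, and its 2 probesets disagreed. The probeset used stood at 4.59, 4.54 and 4.76 in wild-type arrays and between -0.56 and -0.23 in sesB1 arrays (log2 fold change -4.99, limma adjusted p = 2.5e-09), and the other had a value of 0.18 (limma adjusted p = 0.15). CG30427, a predicted fatty acyl-CoA reductase gene, had log2 fold changes of -3.82 (limma adjusted p = 3.6e-08), -0.59 (limma adjusted p = 0.0019) and -0.14 (limma adjusted p = 0.38) on its 3 probesets.

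CG18301, a predicted lipase gene, stood at 4.91, 5.06 and 4.86 in wild-type arrays and 1.18, 0.60, 0.36 and 0.72 in sesB1 arrays, 18.7-fold lower with no overlap. CG2663 and CG10657, both of the CRAL-TRIO family of lipid-binding proteins, were 16.8-fold and 6.14-fold lower. dia, a formin that builds actin filaments in cell division, was 5.22-fold lower, from between 1.53 and 2.14 to between -0.59 and -0.30. Cpr51A, a cuticle protein gene, was 5.73-fold lower.

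Gene lists were read against all probesets tested, of which 11.1% were higher and 10.8% lower, around a median of -0.01. Genes were counted once, on 1 probeset each. In a fit of the 11981 genes alone, on 1 probeset each, 1783 were higher and 1756 lower, larger shares than over all probesets. The share higher was 14.3% in cuticle genes and 14.3% in cytosolic ribosome genes, near that of all genes. So was the share lower in synaptic genes, 16.7%. In lists of detoxification enzymes, large rises stood beside falls. Of 83 measured cytochrome P450 genes, whose enzymes oxidize lipids, hormones and foreign compounds, 36 were higher and 15 lower, with a median of 0.14. Cyp6a8 stood at -2.55, -2.73 and -2.69 in wild-type arrays and 1.20, 1.08, 0.82 and 1.07 in sesB1 arrays, 13-fold higher with no overlap (limma adjusted p = 1e-08). Cyp4e3 rose 16-fold, Cyp6a23 7.99-fold and Cyp309a1 by 2.36 on the log2 scale. Cyp6a2 fell, from between 1.45 and 1.85 to between -0.23 and 0.21 (-1.73, limma adjusted p = 1e-05), as did Cyp312a1 (-1.58).

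Of 34 glutathione S-transferase genes, which conjugate reactive compounds to glutathione, 18 were higher and 5 lower, with a median of 0.24. GstD2 stood at -1.95, -1.93 and -2.09 in wild-type arrays and 0.69, 0.39, 0.56 and 0.75 in sesB1 arrays (log2 fold change 2.59, standard error 0.10, limma adjusted p = 1.4e-07). GstE1 rose by 2.09 and GstE7 by 1.42, and GstE5 fell by 1.34. Of 35 UDP-glycosyltransferase genes, which attach sugars to small molecules, 11 were higher and 2 lower (1 lower without any 1 of wild-type arrays 1 and 3 and sesB1 arrays 3 and 4). Ugt37A3 stood between -3.24 and -2.64 in wild-type arrays and between -0.04 and 0.85 in sesB1 arrays, 10.7-fold higher, and Ugt35C1 rose by 2.52.

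Genes of one-carbon metabolism and amino acid breakdown rose widely: of 40 measured, 30 were higher and 1 lower, the median was 0.84, and 17 reached 2-fold. The median over the list lay between -0.78 and -0.62 in the wild-type arrays and between 0.09 and 0.19 in the sesB1 arrays, with no overlap. The whole path of tyrosine breakdown was among them. Tat, tyrosine aminotransferase, rose by 1.37 (limma adjusted p = 1e-05), Hpd, hydroxyphenylpyruvate dioxygenase, by 2.04, and hgo, homogentisate dioxygenase, by 2.03. GstZ1, which isomerizes maleylacetoacetate, stood at -1.63, -1.61 and -1.33 in wild-type arrays and 0.12, 0.07, -0.07 and 0.01 in sesB1 arrays and rose by 1.56. Faa, fumarylacetoacetase, the last enzyme, rose by 1.08, so that all 5 steps were higher with no overlap between the genotypes.

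Serine, glycine and folate genes rose with them. Nmdmc, the mitochondrial methylenetetrahydrofolate dehydrogenase, stood at -1.60, -1.42 and -1.71 in wild-type arrays and 0.34, 0.51, 0.60 and 0.46 in sesB1 arrays (log2 fold change 2.06, standard error 0.09, limma adjusted p = 4.2e-07). Shmt, which splits serine to glycine and a one-carbon unit, rose 2.84-fold, and pug, a folate enzyme of the cytosol, by 1.62. The glycine cleavage genes CG3999 and CG6415 rose by 1.82 and 1.27. CG6287 and aay, which encode phosphoglycerate dehydrogenase and phosphoserine phosphatase of serine synthesis, rose by 0.89 and 1.10, and Srr, serine racemase, by 2.35.

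Other branches rose too. arg, arginase, rose by 1.80 (limma adjusted p = 4.7e-07), Cbs, cystathionine beta-synthase of the path from homocysteine to cysteine, 2.55-fold, and Mccc2, a carboxylase subunit of leucine breakdown, by 1.14. The member that fell was P5CDh2 (-0.40), and slgA, proline dehydrogenase, and Gdh, glutamate dehydrogenase, had values of -0.17 and 0.21 that did not pass.

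De novo purine synthesis uses folate one-carbon units and glycine. Of 14 measured genes of purine and pyrimidine synthesis, 6 were higher and 0 lower, and all 6 were of the purine path. This list was added after the value of Gart was seen. Gart, which encodes an enzyme of 3 steps of the path, stood at -2.33, -2.04 and -1.80 in wild-type arrays and 0.39, 0.54, 0.45 and 0.58 in sesB1 arrays, and rose by 2.55 (standard error 0.12, limma adjusted p = 4.7e-07). Paics rose by 1.79, Adsl by 1.57 and Pfas by 1.40, each an enzyme of later steps, and Prat2, of the first step, by 0.60. The pyrimidine genes r and Dhod had values of 0.04 and -0.20 that did not pass.

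**Figure D3:**
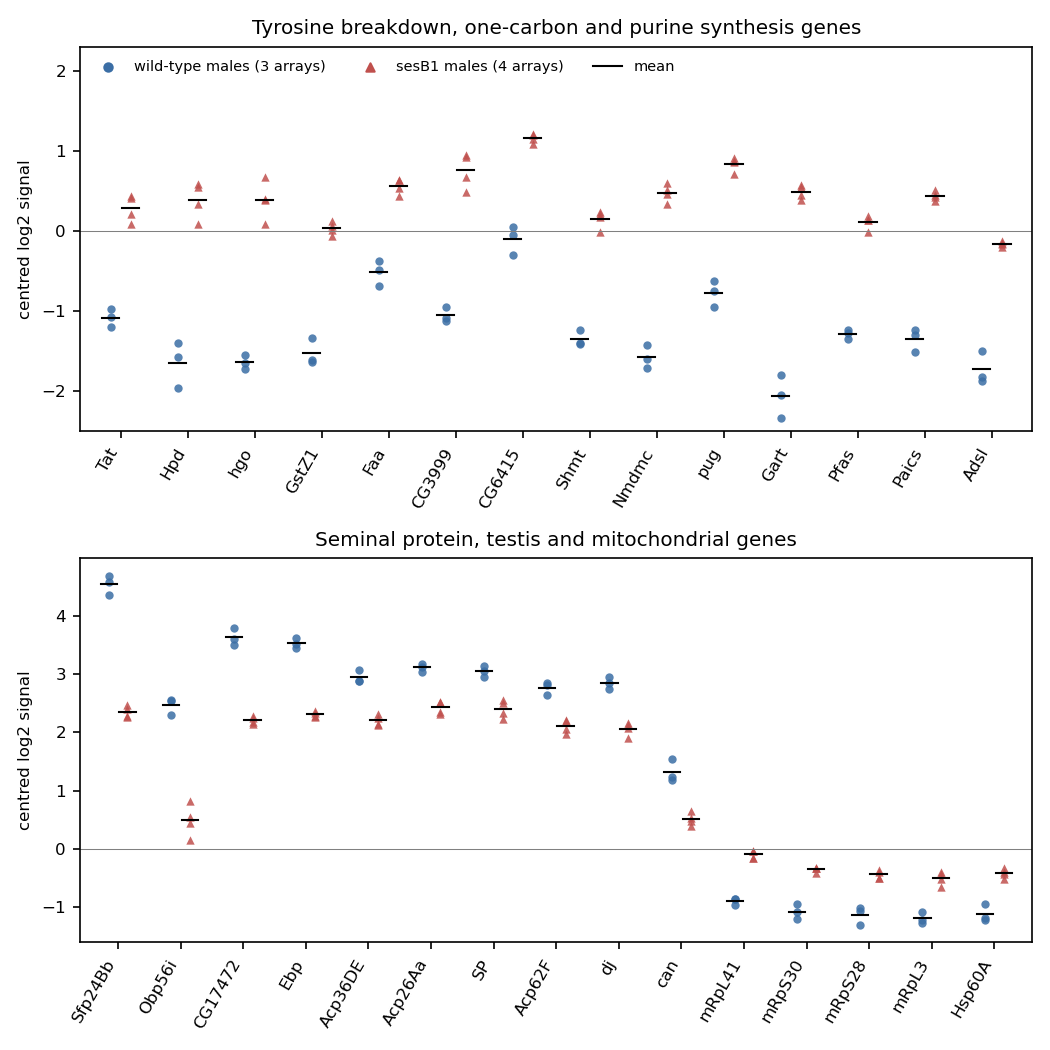
Centred log2 signal (vertical axis) of genes of tyrosine breakdown, one-carbon metabolism and purine synthesis (upper panel) and of seminal, testis and mitochondrial genes (lower panel), for each wild-type (circle) and sesB1 (triangle) array, with the mean of each genotype as a bar. All 14 genes of the upper panel are higher in every sesB1 array, by 1.08 (Faa) to 2.55 (Gart) between the means.

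Most alpha-glucosidase genes rose. Of 11 alpha-glucosidase genes, which split maltose and related sugars in the gut, 10 were higher and 0 lower, each at least 2-fold, and the median was 1.46. tobi, an alpha-glucosidase gene known to respond to dietary protein and sugar, stood at -1.74, -1.06 and -1.63 in wild-type arrays and 0.99, 0.90, 1.11 and 1.16 in sesB1 arrays, 2.52 higher (limma adjusted p = 2.2e-06). Mal-A7 rose by 2.01 and Mal-B1 by 1.86, and Mal-A5 stood at 0.07, short of the threshold. The list median lay between -0.73 and -0.42 in wild-type arrays and between 0.60 and 0.93 in sesB1 arrays, and 10 genes were higher under every alternative run.

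Amyrel, an amylase-related gene, stood between -2.36 and -1.96 in wild-type arrays and between 0.01 and 0.26 in sesB1 arrays (log2 fold change 2.33, limma adjusted p = 4.1e-07). Of 10 alpha-mannosidase genes, whose enzymes trim mannose, 5 were higher and 2 lower (1 lower without any 1 of wild-type array 2 and sesB1 arrays 3 and 4). LManIII stood at -2.44, -1.27 and -2.13 in wild-type arrays and -0.05, 0.05, 0.63 and 0.45 in sesB1 arrays and rose by 2.22 (standard error 0.26, limma adjusted p = 0.00019).

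Of 10 genes of gluconeogenesis and pyruvate metabolism, 5 were higher, 1 was lower and 4 did not pass. Pepck1, phosphoenolpyruvate carboxykinase, the committed step of gluconeogenesis, stood at -0.76, -0.90 and -0.76 in wild-type arrays and 0.93, 0.74, 0.70 and 0.90 in sesB1 arrays (log2 fold change 1.62, standard error 0.08, limma adjusted p = 8.5e-07). fbp, fructose bisphosphatase of the same path, rose by 1.52, and Got2, the mitochondrial aspartate aminotransferase, by 0.85. Pepck2, the paralog of Pepck1, fell by 0.60. Of 17 glycolysis and glycogen genes, 7 were higher and 1 lower, with smaller changes. Pgm1, which links glycogen to glycolysis, rose by 0.55 and the hexokinase gene Hex-C by 0.49, while the values of Pfk and Eno, -0.07 and 0.06, did not pass.

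Genes of fat breakdown were higher and some of fat synthesis lower. Of 23 genes of beta-oxidation, the stepwise breakdown of fatty acids in mitochondria and peroxisomes, 15 were higher and 0 lower, with a median of 0.59. The largest rise in the list was in CG9547, a predicted glutaryl-CoA dehydrogenase, an enzyme of amino acid breakdown and not a step of beta-oxidation. CG9547 stood at -1.76, -1.60 and -1.37 in wild-type arrays and 0.35, 0.50, 0.45 and 0.50 in sesB1 arrays, and rose by 2.03 (standard error 0.09, limma adjusted p = 5.2e-07). yip2, a thiolase, rose by 1.21 and scu, a hydroxyacyl-CoA dehydrogenase, by 0.77, and CPT2, which remakes acyl-CoA inside the mitochondrion, by 0.57. whd, the carnitine palmitoyltransferase of the outer membrane, overlapped between the genotypes (0.02, limma adjusted p = 0.96).

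Of 21 genes of fatty acid synthesis, elongation and storage, 8 were lower and 2 higher. Elovl7, an elongase, stood at 1.49, 1.48 and 1.37 in wild-type arrays and -0.03, -0.08, 0.02 and -0.24 in sesB1 arrays and fell by 1.53 (limma adjusted p = 1.1e-06). The fatty acid synthase genes FASN3 and FASN1 fell by 0.92 and 0.31. mdy, the acyltransferase that makes triglyceride, rose by 1.43. Without wild-type array 2 and sesB1 array 4, 4 genes of this list were lower. Of 24 lipase genes 7 were higher and 8 lower, from CG5966 (2.23) and CG6283 (1.97) to CG11608 (-1.25) and CG18301 (-4.23).

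Proteins of the mitochondrial ribosome, which translates the mitochondrial genome, rose by small amounts: of 71 measured genes, 54 (76.1%) were higher and 0 lower. The median log2 fold change was 0.39, with a range of -0.18 to 0.80, and 0 members reached 2-fold. The list median lay between -0.79 and -0.68 in wild-type arrays and between -0.38 and -0.32 in sesB1 arrays, with no overlap. mRpL41 stood at -0.96, -0.86 and -0.86 in wild-type arrays and -0.15, -0.14, -0.04 and -0.03 in sesB1 arrays (0.80, standard error 0.07, limma adjusted p = 2.7e-05). tko, which encodes protein S12 of the small subunit and whose mutation is known for the same seizures, rose by 0.38. Counts of higher members ran from 44 to 58 over the alternatives run on this list, with 49 after quantile normalization.

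Of 94 genes listed for the cytosolic ribosome 42 were measured, and of these 6 were higher and 1 lower, with a median of 0.13. The list also holds genes named only as like a ribosomal protein. Among the higher genes were RpL24-like (0.36) and RpL7-like (0.26), and the lower one was RpL22-like (-0.33, or -0.04 after quantile normalization). A single member was higher after quantile normalization, 2 were higher without any 1 of wild-type array 1, wild-type array 3 and sesB1 array 4, and 3 without sesB1 array 2 or 3. The ribosome lists were not set against each other in a test. Of 30 aminoacyl-tRNA synthetase genes 9 were higher and 4 lower. Of the mitochondrial ones 5 were higher, among them PheRS-m (0.55) and SerRS-m (0.51), and 3 lower, among them CysRS-m (-0.44), and HisRS had the largest rise, 0.79. For TrpRS, which fell by 0.54 on the probeset used, values of -0.12 and -0.07 on the other 2 did not pass.

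Hsp60A and CG11267, which encode the chaperonin of the matrix and its cofactor, rose by 0.70 and 0.74, and Hsc70-5, the matrix Hsp70, by 0.49. Opa1, a dynamin of inner membrane fusion, rose by 0.53 and Lon, a matrix protease, by 0.43. Of 19 genes of mitochondrial DNA maintenance and biogenesis 7 were higher and 0 lower. Of 16 genes listed for the TCA cycle 7 were higher and 0 lower, with a median of 0.17. Not every listed gene is an enzyme of the cycle. The largest rise in the list, on both probesets, was in Pdk (0.75), the kinase that switches off pyruvate dehydrogenase and not a step of the cycle. Mdh1, a malate dehydrogenase, rose by 0.59 and Scsalpha1 by 0.56.

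Among respiratory chain subunits, most genes did not pass. Of 26 genes of complex I, 10 were higher and 1 lower, with a median of 0.21, and ND-B8, the lower one, fell by 0.80 (limma adjusted p = 0.00014). The count of higher members was 2 without wild-type array 2 and sesB1 array 4, 4 without any 1 of wild-type array 2, sesB1 array 3 and sesB1 array 4, and 6 without wild-type array 1 or sesB1 array 1. Of 7 genes of complex III 1 was higher and 1 lower, the latter RFeSP on the probeset given above. Of 9 genes of complex IV and 12 of ATP synthase, 2 each were higher and 0 lower. Leaving out 1 array left 1 or 2 of them in complex IV and 0 to 2 in ATP synthase. COX7A, a subunit of complex IV, rose by 0.57, from between -0.55 and -0.45 to between 0.08 and 0.09. Among 24 mitochondrial carriers, 6 were higher and 5 lower (3 lower without any 1 of wild-type arrays 1, 2 and 3 and sesB1 arrays 3 and 4), with aralar1, an aspartate-glutamate carrier, at 0.64, the dicarboxylate carrier Dic1 at 0.63 and the ATP-magnesium and phosphate carrier SCaMC at 0.66.

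**Figure D4:**
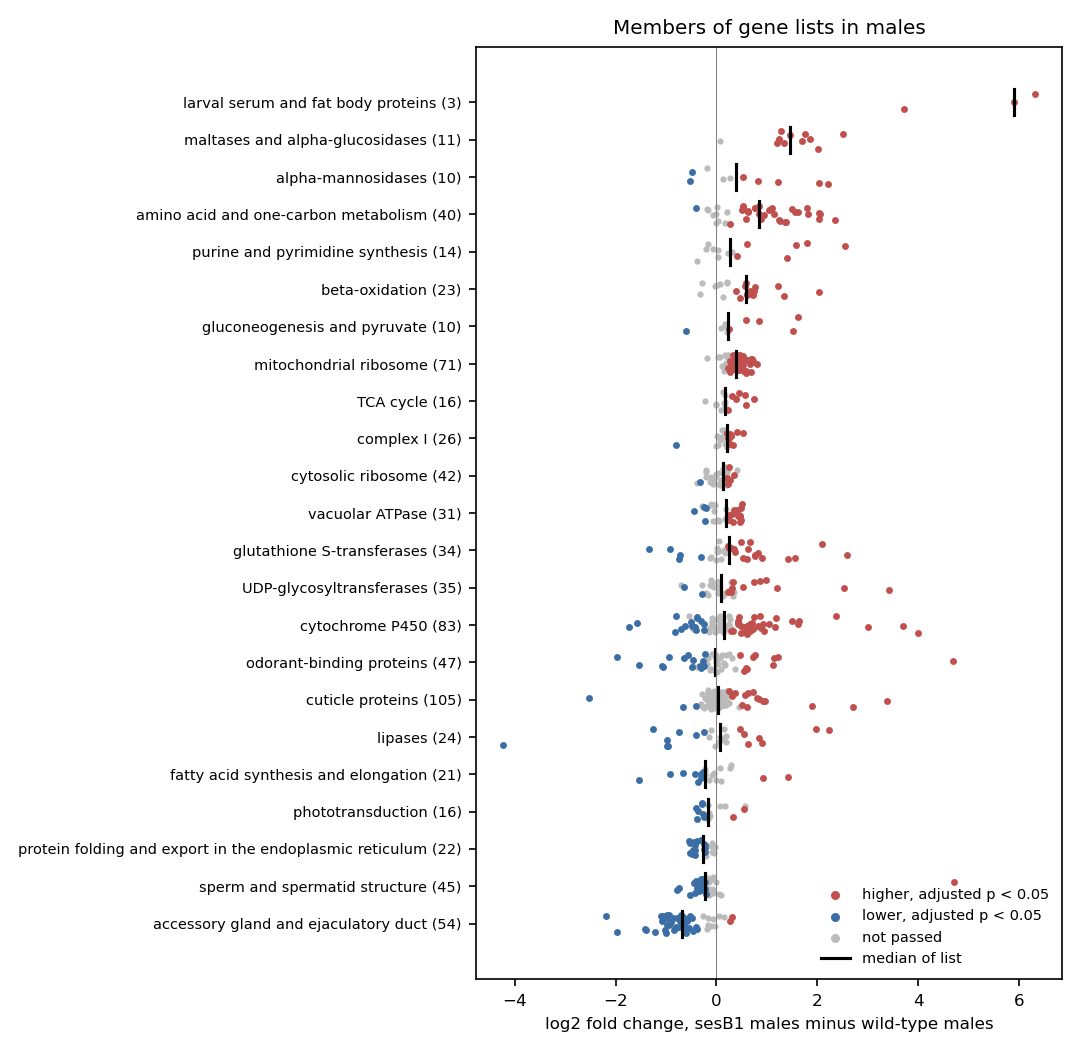
Log2 fold change of sesB1 males against wild-type males (horizontal axis) for each measured member of 23 gene lists (rows, with the number measured), coloured by the limma test and with the list's median as a bar. Members of the mitochondrial ribosome lie in a narrow band around 0.39, and those of the accessory gland around -0.68.

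Most genes of seminal proteins were lower in sesB1 males. Of 54 measured genes for proteins of the accessory gland and ejaculatory duct, which pass to the female in the seminal fluid, 42 were lower and 2 higher, with a median of -0.68. The list median lay between 2.73 and 2.85 in wild-type arrays and between 2.03 and 2.22 in sesB1 arrays, and 10 members reached 2-fold. Sfp24Bb stood at 4.36, 4.69 and 4.58 in wild-type arrays and 2.40, 2.47, 2.29 and 2.26 in sesB1 arrays (-2.19, standard error 0.09, limma adjusted p = 3.4e-07). Obp56i, an odorant-binding protein, fell by 1.97 and Ebp, a protein of the mating plug, by 1.21.

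Seminal proteins of known action stood near the list median. SP, the sex peptide that changes the behaviour of mated females, stood at 3.15, 3.06 and 2.96 in wild-type arrays and 2.51, 2.56, 2.23 and 2.34 in sesB1 arrays and fell by 0.64 (limma adjusted p = 0.00082). Acp36DE, needed for sperm storage, fell by 0.74, Acp26Aa, which stimulates egg laying, by 0.69, and Acp62F, a protease inhibitor, by 0.66. The 2 higher members were Acp98AB (0.26) and hdly (0.31). Higher members numbered 0 without any 1 of wild-type arrays 2 and 3 and sesB1 arrays 2 and 3, and 1 without any other array. Sfp26Ad, which fell by 1.39, had a value of -0.37 after quantile normalization (limma adjusted p = 0.08). The scale of the change depended on that step for the whole list, with 28 members lower and 4 higher, a median of -0.32, and a value of -1.06 for Sfp24Bb.

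Testis lists held more lower than higher genes as deposited, a direction that quantile normalization turned in the lists of sperm structure and of metabolic paralogs. Of 45 genes of sperm and spermatid structure 21 were lower and 1, Sdic3, was higher, with a median of -0.24. dj, a protein of the sperm tail mitochondria, stood at 2.75, 2.85 and 2.96 in wild-type arrays and 2.08, 2.15, 2.13 and 1.90 in sesB1 arrays and fell by 0.79 (limma adjusted p = 0.00013), or by 0.45 after quantile normalization. r-cup fell by 0.75 on the probeset used, and 1 of its other 2 probesets had a value of -0.12 (limma adjusted p = 0.33). Without wild-type array 2 and sesB1 array 4, 11 members were lower and 1 higher. After quantile normalization 2 were lower and 4 higher, and the median was 0.04, so that the direction of this list is not settled.

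Of 26 genes of meiotic arrest and meiosis in spermatocytes, 7 were lower and 0 higher. can, a testis-specific transcription factor subunit, stood at 1.19, 1.24 and 1.55 in wild-type arrays and 0.40, 0.47, 0.65 and 0.54 in sesB1 arrays and fell by 0.81 (limma adjusted p = 0.0003), and tbrd-1, a bromodomain protein of the testis, fell by 0.77. aly and bol, which act in the same cells, had values of 0.03 and -0.11 that did not pass. Of 26 testis paralogs of metabolic enzyme genes, 6 were lower and 2 higher (3 and 10 after quantile normalization, with a median of 0.13 in place of -0.22). CG13334, a predicted lactate dehydrogenase, fell by 1.03.

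Genes of the endoplasmic reticulum were lower in sesB1 males. Of 22 measured genes for folding and export of secreted proteins, 16 were lower and 0 higher, and every member had a value below 0, from -0.54 to -0.03, with a median of -0.27. This list was added after the values of Hsc70-3 and Gp93 were seen. Hsc70-3, the Hsp70 of this compartment, stood at 0.02, -0.04 and 0.10 in wild-type arrays and -0.56, -0.38, -0.42 and -0.65 in sesB1 arrays (-0.53, limma adjusted p = 0.0013). ERp60 and CaBP1, protein disulfide isomerases, fell by 0.53 and 0.54 and Gp93, an Hsp90, by 0.49. The count was 9 without wild-type array 2 and sesB1 array 4, 10 without wild-type array 3 and 16 after quantile normalization.

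Stress genes differed by list. Of 31 heat shock and chaperone genes 19 were measured, with 3 higher, all 3 of the mitochondrial matrix, and 5 lower, among them Hsp26 (-0.69). Hsp22, which the study reports as upregulated, was not among the measured genes. Of 17 genes tied to the integrated stress response 8 were higher and 1 lower. The 4 that rose at least 2-fold, GstE1, Nmdmc, Shmt and CG6415, are detoxification, folate and glycine genes already given above. The lower gene, ImpL2 (-0.56), is given below with the hormone genes. The list is therefore not separate from those results. Smaller rises included Irbp18 (0.41) and crc (0.27), the ATF4 transcription factor, while AsnS, asparagine synthetase, stood at 0.14, short of the threshold. Of 13 antioxidant genes 7 were higher, led by Gtpx (0.58) and the mitochondrial peroxiredoxin Prx3 (0.50), and 2 lower. A single gene was lower without any 1 of wild-type arrays 1 and 2 and sesB1 arrays 1, 2 and 4. TrxT (-0.41), a thioredoxin of the testis, was among the lower genes and had a value of -0.04 after quantile normalization (limma adjusted p = 0.72).

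Antimicrobial peptide genes were mostly within the spread of the arrays. Of 16 antimicrobial peptide genes 1, Drsl4, was lower (-1.47, limma adjusted p = 1.2e-05), and 0 were higher. Mtk stood at -0.11, -1.05 and 1.75 in wild-type arrays and 3.15, 1.44, 0.57 and -0.29 in sesB1 arrays, so that the genotypes overlapped widely. Of 7 peptidoglycan recognition genes 4 were higher and 0 lower, with PGRP-SB1, an amidase, at 0.92 and PGRP-SC2 at 0.58.

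Odorant-binding proteins moved both ways: of 47 measured, 10 were higher and 14 lower. After Obp99b the rises were in Obp99c (1.21), Obp56a (1.14) and Obp28a (1.12). The largest fall was in Obp56i, followed by Obp8a (-1.54). Of the 14 lower genes, Obp56i, Obp56g, Obp56f, Obp22a and Obp51a also stand in the list of the accessory gland and duct. Of 105 cuticle protein genes 15 were higher and 3 lower, and Cpr67Fb rose by 2.71, from between 0.63 and 1.76 to between 3.68 and 4.04.

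In lists of nerve, eye and muscle more genes were lower than higher, and elav alone reached 2-fold. Of 30 synaptic and neuronal genes 5 were lower and 0 higher, led by elav, a neuronal RNA-binding protein, which fell by 1.04 (limma adjusted p = 1.7e-05), and unc-13, of vesicle priming (-0.46). Of 16 phototransduction genes 7 were lower and 2 higher, with Arr1 and Arr2, the arrestins of the photoreceptor, at -0.38 and -0.36 and trp, the light-activated channel, at 0.55. Without wild-type array 2 and sesB1 array 4, the lower genes numbered 2 and 1 in these lists, and neither arrestin passed. Lower synaptic genes numbered 2 without wild-type array 3 and 3 without any 1 of wild-type array 2 and sesB1 arrays 2, 3 and 4. Lower phototransduction genes numbered 3 without any 1 of wild-type array 2 and sesB1 arrays 1, 3 and 4, and 4 without wild-type array 1. Of 20 muscle genes 6 were lower, with Mp20 at -0.41, and 1, up, which encodes troponin T, was higher (0.59), and 3 were lower without wild-type array 3.

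Among hormone genes, Ilp5, an insulin-like peptide of the brain, stood at 0.72, 0.40 and 0.62 in wild-type arrays and -0.41, -0.14, -0.50 and -0.26 in sesB1 arrays and fell by 0.91 (standard error 0.11, limma adjusted p = 0.00022). Akh, the adipokinetic hormone that releases stored fuel, rose by 0.73, from between -0.28 and -0.05 to between 0.42 and 0.64. Ilp2, another insulin-like peptide of the same cells, did not pass at -0.15 (limma adjusted p = 0.41), and ImpL2, a secreted antagonist of insulin, fell by 0.56.

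Further lists held few large changes. Of 31 genes of the vacuolar proton ATPase 15 were higher and 4 lower, each by less than 2-fold, with Vha100-2 at 0.50, and leaving out any 1 array left 1 or 2 of the lower ones. Of 34 midgut protease genes 6 were higher and 9 lower, with Jon99Fi at -1.55 and Ser6 at 1.48. Of 20 genes for transporters 5 were higher (3 without any 1 of wild-type arrays 1 and 3 and sesB1 arrays 2 and 3) and 5 lower, of 26 proteasome genes 3 were lower, and of 166 chemosensory receptor genes 3 were higher (1 without wild-type array 3 or sesB1 array 4) and 2 lower. Of 10 clock genes 1 was higher, and of 28 genes of DNA replication and mitosis 2 were lower, among them tum (-1.27), a regulator of cytokinesis. The latter count was 5 without wild-type array 1, 3 without sesB1 array 1, 1 without wild-type array 2 and 8 after quantile normalization. Without wild-type array 2 and sesB1 array 4, 0 proteasome and 1 vacuolar ATPase genes were lower, and 0 chemosensory, 0 ATP synthase, 1 complex IV, 4 glycolysis, 5 integrated stress response and 3 cytosolic ribosome genes were higher. In the list of sex determination and sex-biased fat body genes, fit stood at -0.09, 0.13 and 0.09 in wild-type arrays and between -1.53 and -1.01 in sesB1 arrays and fell by 1.29.

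Some genes had also been measured by quantitative RT-PCR. On the arrays, 7 of 8 such genes were higher in sesB1 males. They were chosen with these samples in view, so their direction is not independent evidence. Apart from those above, Lip3, a lipase, rose by 0.85 and CG8093, a predicted lipase, by 0.62. bcd, a maternal gene, stood at -1.70 in wild-type array 2 and between -2.88 and -2.60 in the other 6 male arrays and overlapped between the genotypes.

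The 10 highest and 10 lowest genes of males were set against the sesB1 effect in females in a fit of all 14 arrays. Of the 20, 13 (11 after quantile normalization) differed between the sexes at an adjusted p under 0.05 for the interaction, a test passed by 27.6% of all probesets, and the genes were chosen for their size in males, which raises the count. Among the highest genes 9 of 10 were also higher in sesB1 females, and 4 of the 10 differed between the sexes. Sdic3 was 4.51 units more raised in males (standard error 0.18, limma adjusted p = 1.1e-09), with 0.19 in females. Cyp6a8 rose more in males (a difference of 0.92, or 2.91 after quantile normalization of the 14 arrays). Obp99b and Lsp2 rose less in males, by differences of -2.16 and -2.35, which were -0.24 and 0.30 after quantile normalization of the 14 arrays and no longer passed.

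Among the lowest genes 9 of 10 differed between the sexes, and 3 of 10 were also lower in sesB1 females. CG12990, CG6788, CG18301, CG2663, CG30427 and CG17738 had values between -0.24 and 0.20 in females that did not pass. CG10657 was lower in males (-2.62) and higher in females (0.47, limma adjusted p = 0.0097), a difference of -3.09. RFeSP had nearly equal values in both sexes, -4.99 in males and -4.95 in females, with a difference of -0.03 (standard error 0.13, limma adjusted p = 0.9). CG8289 fell more in females, by a difference of 1.30, or 0.65 after quantile normalization, which did not pass.

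**Figure D5:**
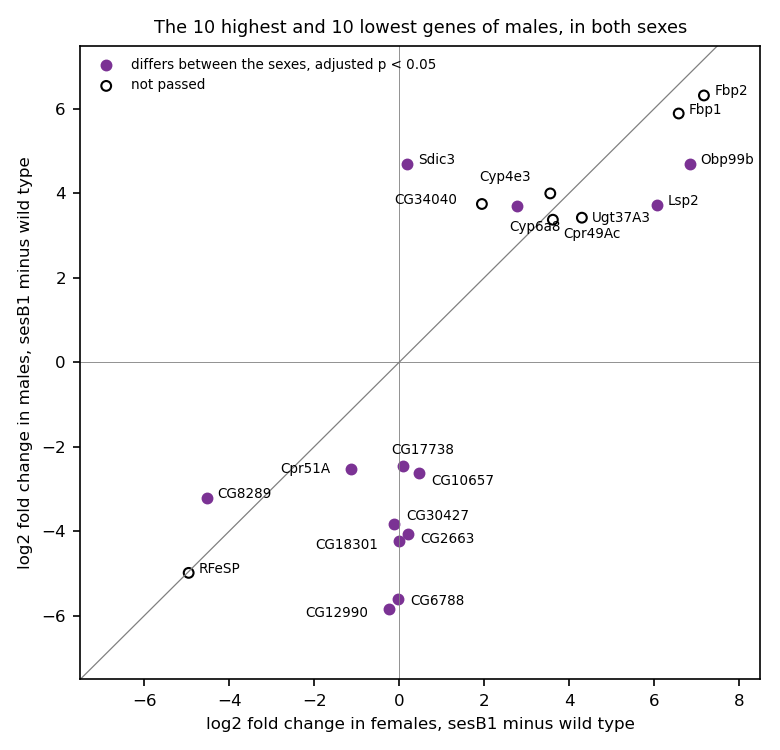
Log2 fold change of sesB1 against wild type in males (vertical axis) and in females (horizontal axis) for the 10 highest and 10 lowest genes of males, with the line of equal change. Filled points differ between the sexes at an adjusted p under 0.05. Among the lowest genes 6 lie between -0.24 and 0.20 on the female axis.

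By chromosome, genes called at 2-fold made up 2.35% of the 1873 measured genes of the X, 3.22% of 2L, 3.34% of 2R, 1.96% of 3L and 2.52% of 3R, and 2.67% of the 11981 genes in all. On the X 27 genes were higher and 17 lower. Among the 50 measured genes on either side of sesB, 0 were higher and 2 lower, SmydA-4 (-1.14) and sev (-1.26), the receptor tyrosine kinase of the eye's R7 cell.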

How the data were processed

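The deposited values are log2 signals of Affymetrix Drosophila 2.0 arrays that the authors normalized in GeneSpring GX and centred on each probeset's median over the 14 arrays. They were handled as scores, since 30 of 265328 deposited cells (18 in male arrays) held spreadsheet date numbers, and these were set missing. The version of GeneSpring and how probes were summarised are unstated in the sources used here. Centred values hold no brightness or background, so no level was compared between genes, and the number of arrays limits the precision.

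After 183 control probesets were removed, 18769 were tested in R 4.3.3 with limma 3.58.1 (lmFit and eBayes) on the 3 wild-type and 4 sesB1 male arrays, with no covariate and Benjamini-Hochberg adjustment over all probesets. On simulated data of the same size, 94 of 100 probesets changed by 0.75 and 99 of 100 changed by 1.5 on the log2 scale were found, with 8 false calls. The simulated noise was independent between probesets and arrays. It held no shifts shared by many probesets, such as those of the female transcripts, so these figures need not hold for the real arrays. The platform annotation gave 13646 probesets 1 gene, 402 several and 4721 none, and 13543 matched a current gene, which left 11981 genes. The first probeset by identifier and suffix (_at, _a_at, _s_at, _x_at) stood for a gene.

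Genes named were sesB, Ant2, the 12 highest and 12 lowest with no overlap between genotypes, up to 4 per list with the largest changes, genes with quantitative RT-PCR and the female transcripts that varied most. Other genes were named for their place in a pathway, after their values were seen. The comparison and all lists were chosen with earlier results of these data known. The lists of purine and pyrimidine synthesis and of endoplasmic reticulum folding were added after Gart, Hsc70-3 and Gp93 were seen. Alternatives were quantile normalization, array centring, a joint fit of 14 arrays, a replicate block, array weights, other tests and fold thresholds, another rule for probesets, and leaving out arrays.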

Additional observations from a re-analysis of the deposited data

Results flagged for a closer look

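The sesB1 effect differed between males and females, by the interaction in limma over 14 arrays, in 13 of the 20 genes examined. On the log2 scale, the effect in males minus that in females was 4.51 for Sdic3, -2.16 for Obp99b, -2.35 for Lsp2 and 0.92 for Cyp6a8. It was -5.59 for CG12990, -5.57 for CG6788, -4.21 for CG18301, -4.27 for CG2663 and -3.71 for CG30427. It was 1.30 for CG8289, -3.09 for CG10657, -1.38 for Cpr51A and -2.57 for CG17738.

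Among the 4 sesB1 male arrays, 12 of 232 genes and list medians examined had 1 array far from the other 3 by Dixon's criterion, which chance gives in about 1 in 20. Yp1, Yp2, dhd, osk, Send1 and CG17239 had been chosen for their spread over the male arrays, and the yolk median is the value of Yp2, so the number of arrays apart is not a test. Array 4 stood at -2.40 for Yp1, -2.70 for Yp2, -2.41 for dhd, -3.47 for osk, -1.27 for Send1 and -0.56 for CG17239, all above the other arrays. Its eggshell median was -2.28 and its yolk median -2.70. CG10657 stood at 0.48 in array 4, below the other 3. In array 3 Obp56a stood at 0.37, and in array 2 dia stood at -0.30, each above the rest. The median of the mitochondrial carriers was 0.12 in array 1, below the other 3.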

How the results depend on the processing

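At 2-fold, 259 probesets were higher and 139 lower. Leaving out 1 array at a time gave 250 to 281 higher and 121 to 154 lower. Quantile normalization gave 269 and 90, of which 251 and 86 were among the original ones, and raised the share of higher probesets from 65.1% to 74.9%. Student's t-test, which the methods name for the experiments in general, gave 251 and 135 after Benjamini-Hochberg and 21 and 18 after Bonferroni adjustment. The statistical filter that the study used on its arrays is not stated. A threshold of 1.5-fold gave 763 and 470, 3-fold 103 and 39, and no fold threshold 2077 and 2035. Array centring, array weights and the joint fit stayed within 1.5 times the original counts.

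The replicate block gave 254 higher and 122 lower. With no fold threshold, as the lists were counted, the replicate block gave 1466 and 1148, and leaving out wild-type array 2 and sesB1 array 4 gave 1668 and 1335. Deviations of same-numbered arrays of the genotypes correlated at -0.163, -0.174 and 0.046. Whether same-numbered arrays shared a culture or a batch is not given and was not tested beyond these values.

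Among counts and medians of lists 2026 stayed within 1.5 times (counts) or within 1 SD between arrays (medians) and 350 did not. Among values of named genes 2456 kept their direction and side of the threshold, 164 no longer passed, and 1 changed direction: COX7AL, a testis paralog of a complex IV subunit, had 0.016 after quantile normalization in place of -0.39. Lsp2 had a difference between males and females of 0.30 after quantile normalization in place of -2.35. The cause was not tested. Of 186 named genes that passed, 146 did so under every alternative on the same probeset. Brightness is unknown, so dim probesets could not be set aside.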
